A study of Mus musculus with 8 samples.

Results

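Glycolysis genes, with genes of glucose and lactate transport, glycogen and the kinases that hold back pyruvate oxidation, were followed across 8 mouse malignant mesothelioma samples. The 37 members were taken by gene symbol from a fixed list, chosen with earlier results of these data known, out of 52636 genes in each count table. All 37 had counts in every sample and all 37 were among the 17709 genes tested. The samples fell into 2 groups. In the 2 double knockout samples Nf2, which encodes merlin, and Cdkn2a, which encodes cell cycle inhibitors, were deleted. In the 6 triple knockout samples Bap1, which encodes a histone H2A deubiquitinase, was deleted as well, so both groups share the loss of Nf2 and Cdkn2a. The title of the study calls the mice conditional models. The driver of the recombinase, the ages of the mice and the number of mice or cultures behind the samples were not stated in the sources at hand. The p-values therefore measure the spread between these samples, which may be technical.

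Total counts ran from 26847202 to 32082535 per sample. The protocols describe cells in culture, yet all 10 leukocyte markers and all 20 adult skeletal muscle markers of the lists used were counted in each of the 8 samples. Of 12 mesothelial markers, 9 were counted in every sample, and Wt1, Krt19 and Calb2 had no count in some. In library-scaled counts (CPM), the 12 summed to 421 and 1561 in double samples 1 and 2, and to 238 to 1179 over the triple samples, so that double sample 2 was the highest of the 8. Of the 11 tested, none was called. Double sample 1 stood apart from the other 7 in muscle genes, as given below, and its scaling factor was 0.771 against 0.994 to 1.10. In such bulk samples, fewer cells of a type and less RNA per cell cannot be told apart.

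Glycolysis turns glucose into pyruvate in the cytosol, and lactate dehydrogenase turns pyruvate into lactate, which leaves the cell through monocarboxylate transporters. Several of its steps are served by isoenzymes from separate genes. Skeletal muscle uses its own forms of phosphofructokinase (Pfkm), phosphoglycerate mutase (Pgam2), enolase (Eno3) and glycogen phosphorylase (Pygm). It also uses the insulin-responsive glucose transporter GLUT4 (Slc2a4). Most other cells use more general or tissue-specific counterparts. The glycogen synthase Gys1 was counted with these muscle isoforms, but its use is not confined to muscle. Tumours commonly draw heavily on glycolysis.

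Of the 37 genes, 2 rose and 0 fell in the triple samples by edgeR's quasi-likelihood test at an adjusted p under 0.05 over all genes tested. Over all 17709 genes, 8.35% were called, 2.94% higher and 5.41% lower. The genes that rose were Eno2, the neuronal enolase, and Pygb, the brain form of glycogen phosphorylase. At an unadjusted p under 0.05 there were 13 of the 37, against 27.9% of all genes tested. DESeq2 called 3 members higher and 7 lower, where it called 19.1% of all genes (8.46% higher, 10.6% lower). Limma-voom called 1 higher (Pygb) and 0 lower, with 2.29% and 3.76% of all genes called. The median log2 fold change, triple minus double, was -0.54 over the members and 0.02 over all genes tested, and 26 of 37 members were below 0, against 49.1% of all genes. Of the members, 10 were below -2, against 5.91% of all genes. Double sample 1 was the highest of the 8 samples for 22 members and the lowest for 6. Without double sample 1 the member median was 0.041, the sign of 16 members turned, and none was called, where 0.553% of all genes were called higher and 1.14% lower. In that fit the lone double sample is assumed to vary as much as the triple samples do. Without double sample 2, 5 members were called higher and 12 lower (13.7% and 15.8% of all genes). The sample descriptions carry a code: SN930 for double sample 1 and triple samples 4, 5 and 6, and other codes for the rest. Within SN930, 0 members were called higher and 6 lower (4.86% and 6.96% of all genes), and within the other codes none was called (0.00% and 0.00552%). Each set holds a different double sample, so the code and the double sample cannot be told apart there.

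**Figure D1:**
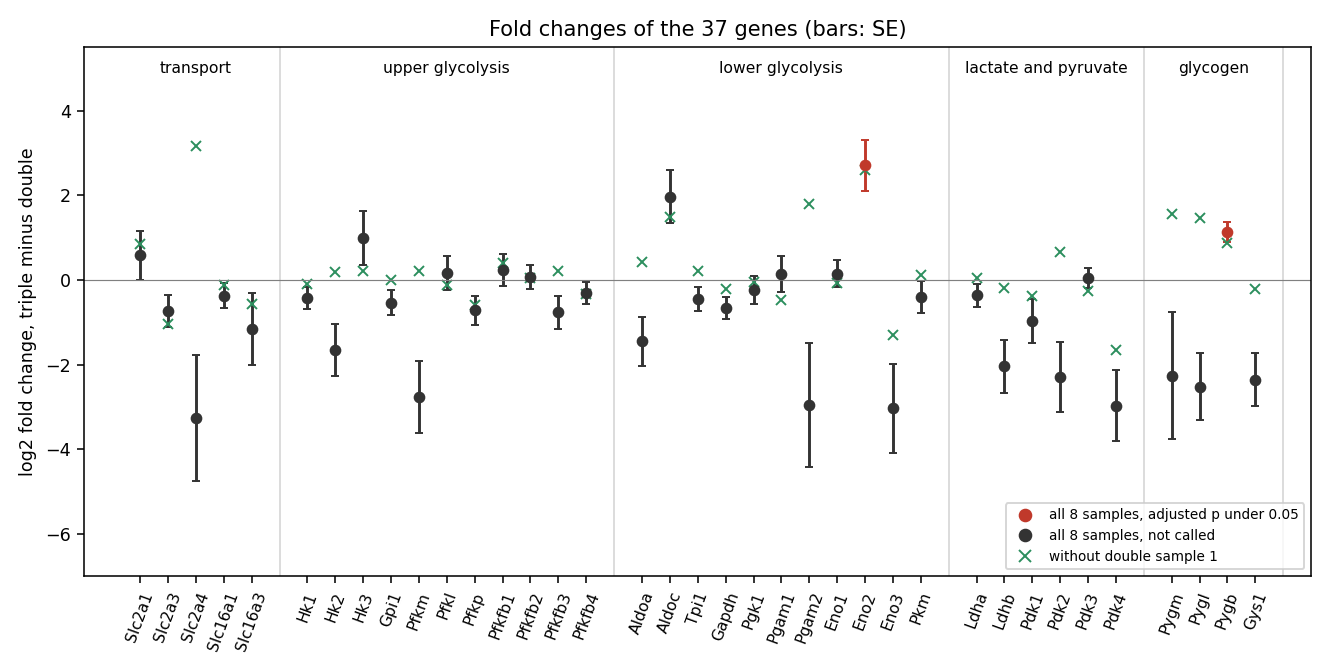
Log2 fold changes, triple minus double, of the 37 genes by role. Circles are fits over all 8 samples with SE bars (red, adjusted p under 0.05), and crosses are fits without double sample 1. Eno2 and Pygb are red, and 6 of the 10 genes below -2 have a cross above 0.

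The muscle isoforms were high in double sample 1 and spanned a wide range in the triple samples. Pgam2 reached 595 CPM in double sample 1 and 11.3 CPM in double sample 2. In the triple samples its lowest, median and highest values were 1.03, 27.4 and 142 CPM, in samples 4 and 2 at the ends. Double sample 1 was thus far above all others, and double sample 2 lay inside the triple range. Pygm, which releases glucose units from muscle glycogen, stood at 1052 and 39.0 CPM against 2.49, 60.1 and 417 CPM (lowest, median and highest triple sample). Slc2a4 stood at 295 and 1.73 CPM against 1.06, 10.6 and 52.2 CPM. For both genes the order was as for Pgam2: double sample 1 on top, triple sample 2 next, and double sample 2 among the triple samples.

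Eno3, the enolase of muscle fibres, had 1746 and 311 CPM against 12.2, 80.6 and 387 CPM (lowest, median and highest triple sample). Here double sample 2 exceeded every triple sample except sample 2. Pfkm, which commits fructose 6-phosphate to glycolysis, stood at 1609.7 and 109 CPM against 55.5, 79.6 and 304 CPM. Gys1, which extends glycogen chains, stood at 543 and 69.4 CPM against 32.6, 47.8 and 96.6 CPM. The groups overlapped for all 6 muscle isoforms, because double sample 2 lay within the triple range each time.

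None of the 6 muscle isoforms was called by edgeR or limma-voom, and DESeq2 called 3 lower (Pfkm, Eno3 and Gys1). Their log2 fold changes had a median of -2.86 and ran from -2.26 ± 1.51 (SE; adjusted p = 0.352) for Pygm to -3.26 ± 1.48 (adjusted p = 0.191) for Slc2a4. Gys1 came nearest to the threshold, at -2.35 ± 0.63 (adjusted p = 0.0533), and was called without a filter on low counts, where 1.45% of all genes were called higher and 3.17% lower. Eno3 was at -3.04 ± 1.05 (adjusted p = 0.106), Pgam2 at -2.96 ± 1.47 (adjusted p = 0.222) and Pfkm at -2.76 ± 0.85 (adjusted p = 0.0803). Without double sample 1 the median of the 6 turned to 0.89, with Slc2a4 at 3.17, Pgam2 at 1.80 and Pygm at 1.56, while Eno3 stayed below 0 at -1.30. Without double sample 2 it was -3.72. Among samples with code SN930 the median was -4.09, and among those with other codes 1.20.

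Sequences just before the annotated starts of muscle isoforms and their counterparts are shown because the ranges of the muscle forms across samples were much wider than those of the counterparts. They are bases before the RefSeq start (GRCm38.p6), 5′ to 3′ on the gene's strand, less any base inside a GENCODE M21 exon. Capitals mark CAGCTG, a form of the E-box that myogenic factors such as MyoD are known to bind.
Pgam2, chr11:5803797-5804046, minus strand: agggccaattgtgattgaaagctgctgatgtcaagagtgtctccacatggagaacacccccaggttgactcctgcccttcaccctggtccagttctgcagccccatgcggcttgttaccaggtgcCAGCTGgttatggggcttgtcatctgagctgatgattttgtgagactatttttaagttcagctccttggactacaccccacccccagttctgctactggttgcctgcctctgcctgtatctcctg
Pgam1, chr19:41911621-41911870, plus strand: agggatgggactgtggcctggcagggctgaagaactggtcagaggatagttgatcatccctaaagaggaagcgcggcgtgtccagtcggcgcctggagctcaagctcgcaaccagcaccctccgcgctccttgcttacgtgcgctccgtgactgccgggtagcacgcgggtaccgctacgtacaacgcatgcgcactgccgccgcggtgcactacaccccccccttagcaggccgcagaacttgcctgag
Eno3, chr11:70656926-70657175, plus strand: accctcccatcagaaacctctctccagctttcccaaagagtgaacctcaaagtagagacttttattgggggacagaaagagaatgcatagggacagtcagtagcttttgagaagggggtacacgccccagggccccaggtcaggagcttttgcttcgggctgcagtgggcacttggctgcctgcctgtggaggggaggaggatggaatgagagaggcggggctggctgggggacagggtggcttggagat
Eno1, chr4:150236458-150236707, plus strand: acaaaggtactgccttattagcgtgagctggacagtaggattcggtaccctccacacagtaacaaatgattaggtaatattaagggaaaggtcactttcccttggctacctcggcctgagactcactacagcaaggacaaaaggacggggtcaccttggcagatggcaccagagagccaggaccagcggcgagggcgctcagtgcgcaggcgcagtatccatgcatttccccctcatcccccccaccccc
Pygm, chr19:6384158-6384398, plus strand: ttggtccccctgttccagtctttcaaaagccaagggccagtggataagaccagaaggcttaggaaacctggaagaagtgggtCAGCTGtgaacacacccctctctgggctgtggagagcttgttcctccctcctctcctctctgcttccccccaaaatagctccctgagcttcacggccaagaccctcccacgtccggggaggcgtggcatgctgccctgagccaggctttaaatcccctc
Pygb, chr2:150786546-150786734, plus strand: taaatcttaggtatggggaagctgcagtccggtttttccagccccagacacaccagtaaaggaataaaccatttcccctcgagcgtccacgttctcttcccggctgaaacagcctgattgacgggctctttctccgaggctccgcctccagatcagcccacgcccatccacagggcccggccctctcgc

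In the RefSeq table, 35 of the 37 genes had 54 promoter windows, up to 4 a gene. A window runs from 250 bases before the start to 50 after it. CAGCTG, which reads the same on both strands, was present in the windows of 4 of the 5 muscle isoforms that had one (Pgam2, Eno3, Pygm and Gys1), and in none of the 4 Pfkm windows. It was present for 6 of the 30 other genes. Counted by window, it was in 4 of 8 windows of the muscle isoforms, in 6 of 46 of the other members and in 16.3% of all 32851. The match in Pgam2 began 125 bases before the start. Pygm had 2 matches, of which 1 lies in the printed stretch, 168 bases before the start, and the match in Eno3 lies outside the printed stretch. No CAGCTG was found in the windows of Pgam1, Eno1, Pygb or Pygl. A MEF2 motif was found in 2 member windows, of Pgam2 and Pfkfb1, and in 3.19% of all windows. ACGTG on either strand, the core of the hypoxia response element, was in 25 of the 54 member windows, with 5 matches for Ldha, and in 19.6% of all windows. These matches describe letters and show no binding.

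Levels of the muscle isoforms were set against those of other adult muscle genes, and no correlation passed adjustment over all genes. With 6 triple samples the permutation p cannot fall below a fixed minimum. A gene could therefore pass only if many genes reached that minimum together, so the adjustment cannot decide for single genes. The 20 adult skeletal muscle markers, none of them a member, summed to 88955 and 4453 CPM in double samples 1 and 2 and to 181 to 19222 CPM in the triple samples. By the mean log2 CPM of these markers the triple samples ran, from low to high, 4, 1, 3, 5, 6 and 2. Across the 6 triple samples Pgam2, Eno3 and Pygm followed that order exactly, a Spearman's rho of 1 that 1.01% of all genes tested shared. The Pearson correlation was 0.993 for Pygm, 0.970 for Eno3 and 0.969 for Pgam2 on the log2 scale. For each of the 3, the exact 2-sided permutation p of r was 0.00139, that of rho 0.00278, the smallest it can be, and the adjusted p over all 17709 genes was 0.189 for r and 0.233 for rho. Without triple samples 2 and 4, the farthest from the median, r was 0.993, 0.913 and 0.866 in the same order. Slc2a4 had rho = 0.886 and r = 0.906 (exact permutation p = 0.0333 and 0.0139, adjusted p = 0.617 and 0.382), with r = 0.805 without those samples. Pfkm had rho = 0.943 and r = 0.851 (exact permutation p = 0.0167 and 0.0264, adjusted p = 0.463 for r), with r = 0.791 without them. Gys1 had rho = 0.771 and r = 0.808 (exact permutation p = 0.103 and 0.0583, adjusted p = 0.744 and 0.563), with r = 0.484 without them. Eno2 ran the other way, with rho = -0.771 and r = -0.806 (exact permutation p = 0.103 and 0.0708, adjusted p = 0.744 and 0.595), and r = -0.972 without those samples. In all, 9 members had a rho above 0.8, 5 of them muscle isoforms, against 5.47% of all genes. Among the other forms in the ratios, rho was 0.943 for Aldoa, 0.543 for Hk1, 0.314 for Pfkp and 0.143 for Pfkl, and below 0 for Eno1 and Pgam1 (-0.371), Slc2a1 (-0.257), Aldoc (-0.086), Pygl and Pygb (-0.429). It was 0.486 for Hk2 and 0.429 for Ldha and Ldhb.

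**Figure D2:**
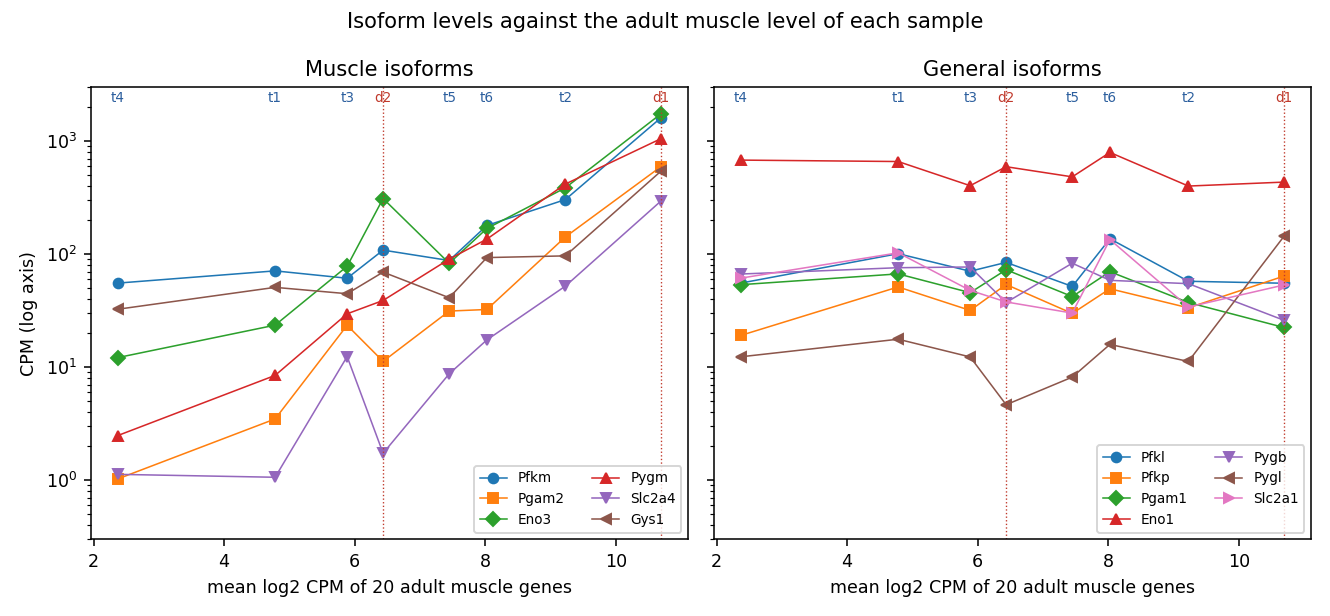
CPM of muscle isoforms (left) and general or tissue counterparts (right) on a log axis, against the mean log2 CPM of 20 adult muscle genes. Each of the 8 samples is 1 position (d, double, with a dotted line; t, triple). The left lines are highest at double sample 1 and rise unevenly toward it. At double sample 2, Eno3, Pfkm and Gys1 are above both neighbouring samples, and Slc2a4 and Pgam2 are below both. Eno1 stays between 401 and 795.

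Double sample 2 sat between triple samples 3 and 5 by adult muscle level, and the isoforms did not fall in step there. Eno3 was 311 CPM in double sample 2, against 78.2 and 83.1 CPM in triple samples 3 and 5. Pfkm, at 109 CPM against 61.3 and 87.9 CPM, and Gys1, at 69.4 CPM against 44.7 and 41.2 CPM, were also above both. Pdk4, a kinase that blocks pyruvate dehydrogenase, showed the same side, at 109 CPM against 9.37 and 36.2 CPM. Pgam2 was on the other side, at 11.3 CPM against 23.5 and 31.4 CPM, as was Slc2a4, at 1.73 CPM against 12.4 and 8.74 CPM. Pygm lay between its neighbours, at 39.0 CPM against 29.7 and 90.4 CPM. The 20 embryonic myogenic markers, another list, summed to 19552 and 4285 CPM in the double samples and to 53.8 to 1292 CPM in the triple samples. Of these 20, 16 fell, where 5.41% of all genes were called lower in the edgeR fit over all 8 samples. Among the 16 was Myh3, embryonic myosin, at 2448 and 636 CPM against at most 18.8 CPM. With the adult muscle level as a term in the fit, the median of the 6 muscle isoforms was -0.66, and Eno3 was the member called, at -1.79 (edgeR adjusted p = 0.0257). In that fit 1.55% of all genes were called higher and 2.40% lower. Pgam2 was at 0.035, Slc2a4 at -0.052 and Pygm at 0.11 there. The part of the embryonic markers in these values was not tested.

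Ratios between isoforms within a sample do not depend on library scaling, apart from a pseudocount of 0.1 CPM. Of 10 ratios, each tested by a 2-sided exact permutation test over 28 splits with a smallest possible p of 0.0357, 1 reached that value and 0 had an adjusted p under 0.05 over the 10. Eno3 to Eno1 had log2 ratios of 2.01 and -0.93 in the double samples and -5.79, -2.45 and -0.05 in the triple samples (lowest, median, highest). The difference, triple minus double, was -3.50 (exact permutation p = 0.107, adjusted p = 0.408). Double sample 2 lay below triple sample 2 and above the other 5. Pygm to Pygb had log2 ratios of 5.33 and 0.06 against -4.69, -0.63 and 2.93, a difference of -3.52 (exact permutation p = 0.214). Pgam2 to Pgam1 had 4.72 and -2.68 against -5.58, -1.03 and 1.92, a difference of -2.75 (exact permutation p = 0.357). Here double sample 2 lay below 4 of the 6 triple samples, as it did for Slc2a4 to Slc2a1.

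The ratio of Pfkm to the liver form Pfkl differed by -2.14 (exact permutation p = 0.143), that of Pfkm to the platelet form Pfkp by -1.24 (exact permutation p = 0.25), and that of Slc2a4 to the general transporter Slc2a1 by -2.07 (exact permutation p = 0.5). Hk2 to Hk1, the inducible against the ubiquitous hexokinase, differed by -0.83 (exact permutation p = 0.286). The ratio of Pygm to the liver form Pygl was nearly equal in the double samples, 2.87 and 3.04, and ran from -2.27 to 5.20 in the triple samples, a difference of -1.34 (exact permutation p = 0.679). Ldha to Ldhb was lowest in double sample 1, at 2.39. Double sample 2, at 4.27, lay inside the triple range of 3.59 to 5.80 (difference 1.34, exact permutation p = 0.214). Aldoa to Aldoc was higher in both double samples, 12.18 and 8.36, than in any triple sample, at 6.28 to 8.35, a difference of -2.88 (exact permutation p = 0.0357, adjusted p = 0.357). With a pseudocount of 1 CPM its p was 0.0714. Without double sample 1, the differences of the Pfkm, Pgam2, Slc2a4 and Hk2 ratios, 5 in all, turned above 0.

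**Figure D3:**
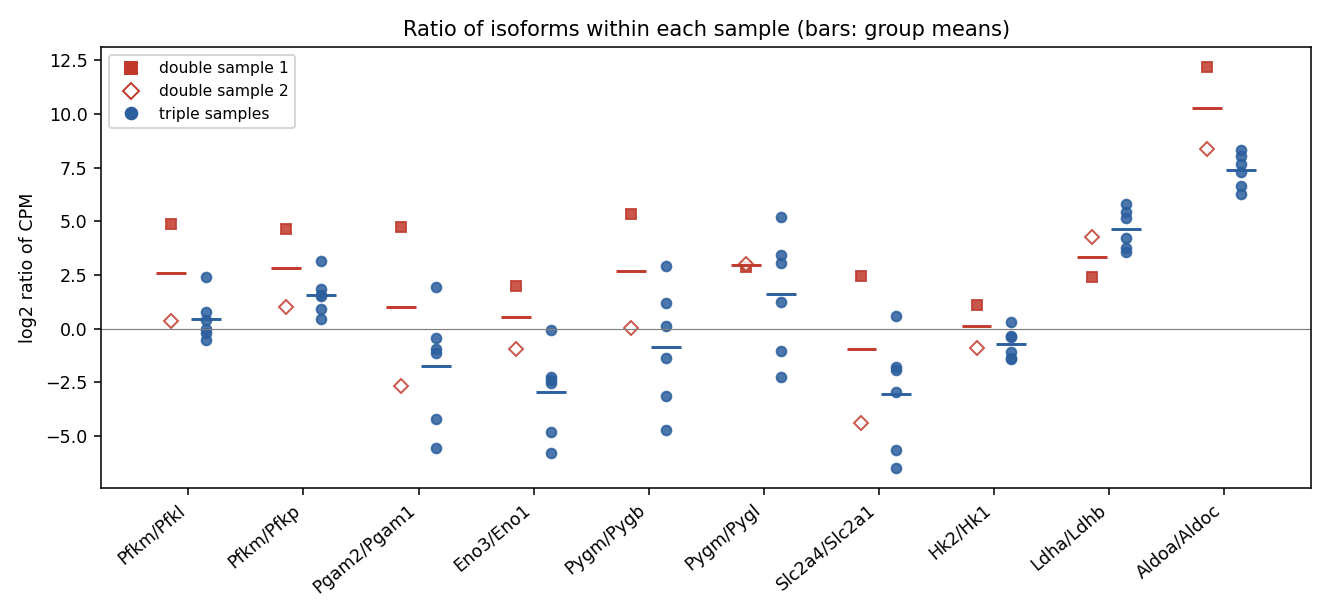
Log2 ratio of CPM within each sample for 10 isoform pairs. Red symbols are the double samples (square 1, diamond 2), blue circles the triple samples, and bars the group means. For Pygm/Pygl the double samples lie together, and for Aldoa/Aldoc they lie above the 6 triple samples.

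Levels between genes were compared as CPM per kilobase of all annotated exons, which understates genes with many alternative exons. On that scale Pgam2 exceeded Pgam1 in 5 of 8 samples, with 708 against 11.3 in double sample 1 and 1.22 against 27.1 in triple sample 4. Eno3 exceeded Eno1 in 3 samples, both double samples and triple sample 2. Slc2a4 exceeded Slc2a1 in double sample 1 and triple sample 2. Pfkm exceeded Pfkl and Pfkp in all 8 samples, at 16.6 to 482 per kilobase against at most 20.5 for Pfkl. The muscle form of phosphofructokinase was thus the most abundant of the 3 by this measure in every sample, while for enolase the general form led in 5 samples. These leads depend on the division by length. For Pfkm and Pgam1 the coordinates in the count tables differed from GENCODE M21, which gave the lengths. In CPM, Pfkm was below Pfkl in triple samples 1 and 3 and level with it in triple sample 4. Eno3 exceeded Eno1 in CPM in double sample 1 only.

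Eno2 was the member with the widest rise. Its levels were 4.01 and 4.66 CPM in the double knockouts. Triple samples 1 to 6 had 48.8, 15.5, 38.3, 35.7, 15.6 and 16.2 CPM. All 6 triple samples lay above both double samples. The log2 fold change was 2.71 ± 0.59 (edgeR adjusted p = 0.0307). It was 2.60 without double sample 1 (adjusted p = 0.202) and lost its call without triple sample 3 (0.0529) or 4 (0.0560) and with limma-voom (0.0835). Without triple samples 1, 3 or 4, the shares of all genes called higher were 1.23%, 1.86% and 1.55%. With the adult muscle level as a term it was 2.10 (adjusted p = 0.0501). The bases before its start are shown to go with this rise; its promoter window held neither CAGCTG nor ACGTG.
Eno2, chr6:124769674-124769862, minus strand: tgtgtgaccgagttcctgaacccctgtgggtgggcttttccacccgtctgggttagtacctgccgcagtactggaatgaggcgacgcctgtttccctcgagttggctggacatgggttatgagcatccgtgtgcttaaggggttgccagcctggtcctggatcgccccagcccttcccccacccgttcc

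Pygb had 26.0 and 37.4 CPM in the double knockouts. Triple samples 1 to 6 had 75.9, 54.9, 77.1, 66.8, 83.3 and 58.7 CPM, again without overlap. Its log2 fold change was 1.13 ± 0.24 (edgeR adjusted p = 0.0269). Without double sample 1 it was 0.88 (adjusted p = 0.148), and the call was lost without triple sample 1 (0.0587), 3 (0.0509) or 4 (0.0510) and with the adult muscle level as a term (0.0555). The liver form, Pygl, had the opposite look: 144 CPM in double sample 1, 4.66 CPM in double sample 2, and 8.17 to 17.7 CPM in the triple samples. Double sample 1 was thus above and double sample 2 below all triple samples, with a log2 fold change of -2.52 ± 0.79 (adjusted p = 0.0831) that turned to 1.47 without double sample 1. The 3 phosphorylase genes therefore ordered the samples in 3 different ways.

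Aldoc, the brain aldolase, was also separate between the groups, at 0.931 and 2.20 CPM against 2.38, 6.43 and 9.82 CPM (lowest, median and highest triple sample). Its log2 fold change of 1.97 ± 0.62 had adjusted p = 0.0853 by edgeR and 0.00696 by DESeq2. Aldoa, the form of muscle and many other tissues, stood at 4781 and 758 CPM against 696, 796 and 1595 CPM, and double sample 2 lay inside the triple range. In all, 5 members did not overlap between the groups, where 24.1% of all genes did not: Eno2, Pygb and Aldoc were higher (12.8% of all genes) and Pfkp and Pdk4 lower (11.4%) in the triple samples. Leukocyte markers were called higher in the triple samples for 2 of 10 genes, where 2.94% of all genes were called higher. These were Cd68 and Itgam, with log2 fold changes of 1.26 and 1.89, and of 0.94 and 1.25 without double sample 1. With the adult muscle level as a term neither was called (edgeR adjusted p = 0.0555 and 0.0560). The summed level of the 10 leukocyte markers was 1162 and 2954 CPM in double samples 1 and 2 and 2241 to 3743 CPM in the triple samples. Double sample 2 thus lay inside the triple range. The part of these cells in the values of Eno2, Pygb and Aldoc was not tested.

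**Figure D4:**
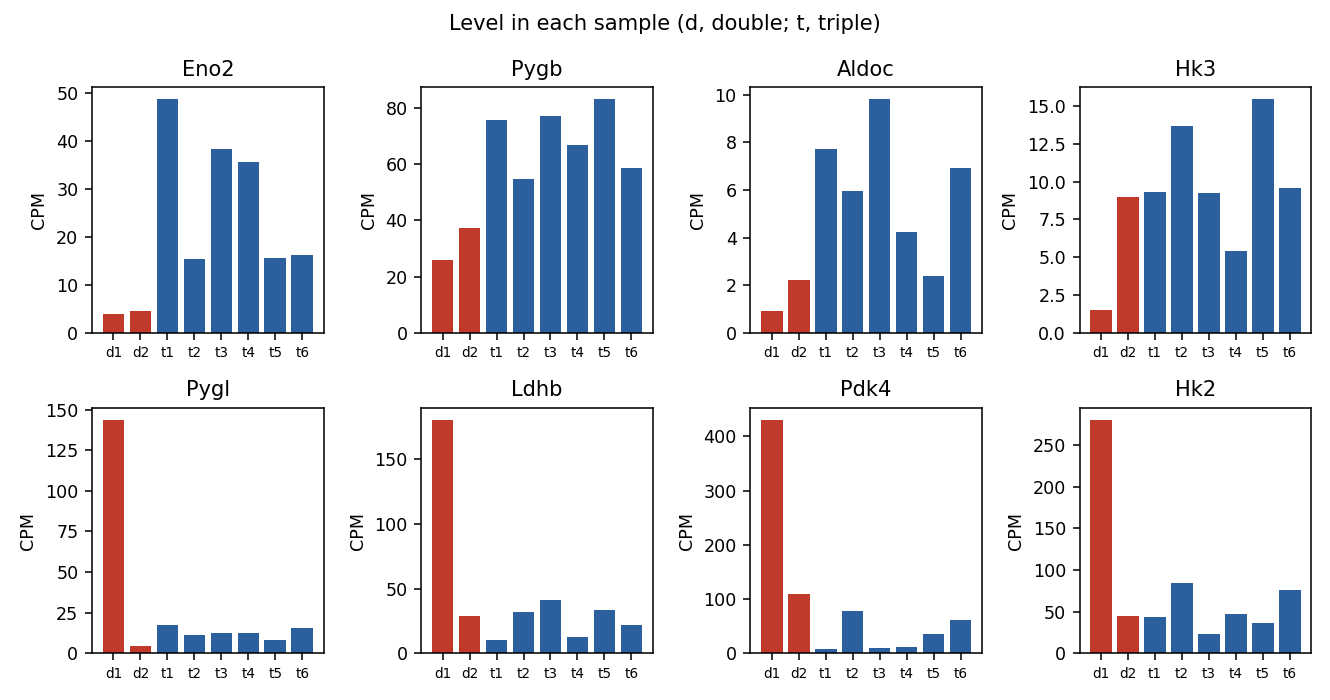
CPM of 8 genes in each sample (red, double 1 and 2; blue, triple 1 to 6), linear axes from 0. Eno2, Pygb and Aldoc are lowest in the double samples, while Pygl, Ldhb, Pdk4 and Hk2 peak in double sample 1.

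At the entry of the pathway no gene passed the test. Slc2a1 stood at 53.4 and 37.8 CPM against 30.1, 54.6 and 135 CPM, and the groups overlapped (log2 fold change 0.59 ± 0.58). Hk2 stood at 281 and 45.5 CPM against 23.4, 45.3 and 84.6 CPM, with double sample 1 alone above the rest (-1.65 ± 0.60, adjusted p = 0.121). Hk1 stayed between 59.2 and 128 CPM over the 8 samples. Pfkl ranged from 51.9 to 137 CPM and Pfkp from 19.1 to 64.0 CPM, with both double samples just above every triple sample for Pfkp (-0.72 ± 0.34, adjusted p = 0.20). The other members of upper glycolysis, Hk3, the glucose 6-phosphate isomerase Gpi1 and the 4 Pfkfb genes that set the level of fructose 2,6-bisphosphate, lay between -0.76 for Pfkfb3 and 0.99 for Hk3. Hk3, a hexokinase known from leukocytes, was at 1.54 CPM in double sample 1 and at 5.44 to 15.5 CPM in the other 7 samples.

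Eno1 and Pgam1, general enzymes of lower glycolysis, varied little beside their muscle forms. Eno1 stood at 434 and 594 CPM against 401, 572 and 795 CPM, with a log2 fold change of 0.15 ± 0.32 (adjusted p = 0.785). Pgam1 stood at 22.5 and 72.9 CPM against 37.4, 49.7 and 70.1 CPM, so that the lowest and highest values were both double samples. Tpi1, Gapdh, Pgk1 and Pkm had log2 fold changes from -0.65 for Gapdh to -0.23 for Pgk1, none of them called. Counts per gene do not separate splice forms of a gene, such as those of Pkm. Gapdh stood at only 33.5 to 83.1 CPM. Of the 50-base windows in its transcripts 25.1% also occur in transcripts of other genes, as do 53.9% for Pgk1, 36.2% for Pgam1 and 26.0% for Eno1. Among the muscle isoforms the share was 0 for Pgam2, Eno3 and Slc2a4, 0.40% for Pygm, 5.79% for Gys1 and 8.83% for Pfkm. Other counterparts had low shares too, 0.03% for Pfkl, 0.27% for Pygb, 1.54% for Slc2a1 and 5.10% for Pfkp. How the counting treated reads that match several genes was not stated, so the levels of genes with a high share are uncertain.

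At the pyruvate branch point 0 of 6 genes were called. Ldha, the main muscle and tumour subunit of lactate dehydrogenase, stood at 946 and 564 CPM against 456, 589 and 791 CPM. Ldhb, the heart subunit, stood at 180 and 29.1 CPM against 10.7, 26.8 and 41.6 CPM, and only double sample 1 was outside the triple range (-2.04 ± 0.63, adjusted p = 0.0807). Pdk4 had 431 and 109 CPM against 9.13, 24.2 and 78.2 CPM, so that both double samples were above all 6. Its log2 fold change was -2.97 ± 0.84 (edgeR adjusted p = 0.0638) and -1.66 without double sample 1 (adjusted p = 0.553). Pdk2 was at -2.29, Pdk1 at -0.98 and Pdk3 at 0.05. Of the lactate transporters, Slc16a1 was at -0.37 and Slc16a3, the exporter MCT4, at -1.16 ± 0.85, with 7.06 to 85.7 CPM over the triple samples. The glucose transporter Slc2a3 was at -0.73.

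Other genes of the pathway were taken from lists, whose counts are to be read against the 5.41% of all genes called lower and 2.94% called higher. Of 21 other glycogen genes 1 fell, Stbd1, which anchors glycogen to membranes, at 184 and 31.7 CPM against 6.27 to 21.2 CPM (log2 fold change -2.87 ± 0.56, adjusted p = 0.0225), with 20 not called. Of 10 genes of pyruvate dehydrogenase and its carrier 2 fell, Pdpr (-1.66 ± 0.30) and Dlat (-1.19 ± 0.30). Of 7 tested gluconeogenesis genes 1 fell, Pcx, pyruvate carboxylase, at 158 and 7.33 CPM against 3.28 to 14.9 CPM. Its log2 fold change of -3.47 became 0.03 without double sample 1. Of 10 tested sugar and lactate transporters 1 fell, the fructose transporter Slc2a5, at 1.34 and 2.24 CPM against 0 to 0.133 CPM. Of the genes named here, Stbd1, Pdpr, Dlat and Pcx lost their call without double sample 1. Slc2a5 kept its call without double sample 1 or 2 (adjusted p = 0.0436 and 0.0150). None of 7 other glycolysis isoforms was called, with Bpgm, which makes 2,3-bisphosphoglycerate, at -1.24 ± 0.37 (adjusted p = 0.0711).

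Among 16 hypoxia targets outside glycolysis 4 fell and 12 were not called, where 5.41% of all genes were called lower, with a list median of -0.15 against 0.02 for all genes. Egln3, an oxygen-sensing hydroxylase, stood at 453 and 115 CPM against 5.52 to 46.6 CPM (-4.09 ± 0.79, adjusted p = 0.0214), so both double samples were above all triple samples. Bnip3, a mitophagy receptor, stood at 630 and 52.7 CPM against 12.5 to 76.1 CPM, and its log2 fold change of -3.05 became -0.36 without double sample 1. Egln1 and Ddit4 were the others. All 4 lost their call without double sample 1. Of 18 regulators 1 fell, Foxo1, at -1.81 ± 0.40 (adjusted p = 0.0322), and at -0.48 without double sample 1. Adipocyte markers, which share Slc2a4 with muscle, summed to 1345 and 38.5 CPM in the double samples and to 6.3 to 230 CPM in the triple samples. Adipoq was at 0 in triple sample 4. Cardiac markers summed to 422 and 8.88 CPM against 7.19 to 52.4 CPM. The part of these cells in the level of Slc2a4 was not tested.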

How the data were processed

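RNA was extracted with Trizol and a column kit and made into libraries with a NEBNext Ultra II kit, per the labels' protocols. The authors deposited 1 table of whole-number read counts per gene and sample. HTSeq, DESeq2, mm10 and GRCm38 are named in the submitters' processing notes. Which aligner, annotation and strand setting were used was not stated, so reads of overlapping or antisense genes could not be separated. Samples were grouped by the labelled genotype, and replicate numbers follow accession order and pair nothing.

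Symbols came from a table of Ensembl IDs. The symbol Aldoa matched 2 rows, and the longer was used. Coordinates and exon lengths came from GENCODE M21, and coordinates of 3 members (Pfkm, Aldoa and Pgam1) differed there. Low counts were removed by filterByExpr, and edgeR's quasi-likelihood test with TMM factors was run in edgeR 4.0.16 (R 4.3.3) over all 8 samples, Benjamini-Hochberg over 17709 genes. SEs were derived from the test statistic, and levels are CPM with TMM factors. Alternatives were DESeq2 1.42.0, limma-voom 3.58.1, other scaling and filters, code and muscle terms, and samples left out. The tests were checked on simulated counts. The members and lists were chosen with earlier results of these data known. Named with values are both genes of each ratio, called members, and, in each role, the uncalled member of smallest p and that of largest change. From other lists up to 4 called genes, or 2 uncalled, are named. One item that this rule covers is not reported here. The correlations with the adult muscle level were added after the data were seen.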

Additional observations from a re-analysis of the deposited data

Results flagged for a closer look

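Over 47 sets of 6 triple values (37 CPM levels and 10 log2 ratios), triple sample 2 was far above the other 5 in 4 levels and in no ratio, by Dixon's criterion for the gap over the range at 6 samples. Levels were examined on a linear scale and ratios on a log2 scale, so levels and ratios cannot be set against each other here. Chance gives such a gap in about 1 in 20 groups of normally distributed values. Pgam2 was 142 CPM there, with 32.4 CPM in the next sample. Pygm was 417 CPM, with 136 CPM next. Slc2a4 was 52.2 CPM, with 17.4 CPM next. Pfkfb1, a kinase and phosphatase of fructose 2,6-bisphosphate, was 7.47 CPM, with 5.04 CPM next. Triple sample 2 also had the highest summed level of adult muscle markers among the triple samples, 19222 CPM.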

How the results depend on the processing

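The number of members called higher, 2 over all 8 samples, was 1 with limma-voom, 0 with the adult muscle level as a term, 0 within code SN930, 0 within the other codes, and 0 to 5 when 1 sample was left out. It was lowest without double replicate 1, triple replicate 3 or triple replicate 4, 1 without triple replicate 1 and highest without double replicate 2. The number called lower, 0 over all samples, was 7 with DESeq2, 1 without a filter on low counts (Gys1), 1 with the muscle term (Eno3), 6 within code SN930, and 0 to 12 when 1 sample was left out. It was 12 without double replicate 2. The member median of -0.54 ran from -0.82 to 0.041 with 1 sample left out and was -0.042 within the other codes. The muscle isoform median of -2.86 ran from -3.72 to 0.89 with 1 sample left out, was -0.66 with the muscle term and turned to 1.20 within the other codes. Both turned above 0 without double replicate 1. With 1 sample left out, the ratio differences ran from -4.39 to 0.11 for Pfkm/Pfkl, -3.06 to 0.58 for Pfkm/Pfkp, -6.45 to 0.95 for Pgam2/Pgam1, -5.49 to 1.34 for Slc2a4/Slc2a1, -1.83 to 0.17 for Hk2/Hk1, -4.79 to -0.98 for Aldoa/Aldoc, -6.16 to -0.89 for Pygm/Pygb, -4.97 to -2.03 for Eno3/Eno1, -2.06 to -0.56 for Pygm/Pygl and 0.40 to 2.28 for Ldha/Ldhb. The ends are the values without double replicate 1 or 2, except for Pygm/Pygl, where they are those without triple replicate 2 and triple replicate 4. Without a double sample only 7 splits remain, so no p can pass. Aldoa/Aldoc was at -2.42 with a pseudocount of 1 CPM. The causes were not tested. No paired analysis was possible because the labels give no replicate numbers shared between the groups.

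With 2 double samples that differ up to 170-fold in a member (Slc2a4), the spread between samples, not the count depth, limits the precision. Whether mouse or culture differed between samples was not stated.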

Other observations

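The lactate exporter Slc16a3 varied widely within the triple samples. It was 85.7 and 57.5 CPM in triple samples 6 and 1 and 7.06 to 15.6 CPM in the other 4. Other genes were set beside it after their values were seen. Slc2a1 (135 and 103 CPM against 30.1 to 61.4), Pdk1 (70.9 and 38.8 CPM against 15.5 to 35.4), Egln3 (46.6 and 23.1 CPM against 5.52 to 10.1) and Bnip3 (76.1 and 65.1 CPM against 12.5 to 32.2) were also highest in triple samples 6 and 1, while the order of the other 4 samples differed between them. Slc2a3 shared these top samples, at 11.1 and 10.7 CPM in triple samples 6 and 1. So did Gpi1, Tpi1, Pgk1, Pgam1, Pfkl, Pfkfb3 and Pfkp, with sample 1 above sample 6 for Pfkp. Pgk1, for example, was at 359 and 284 CPM in triple samples 6 and 1. These top samples were thus not particular to transport or hypoxia genes, and their share over all genes was not counted. Not all genes of like function did, and those named here are examples. Egln1 was 91.4 CPM in triple sample 6 but 75.8 CPM in triple sample 1, below the 78.5 CPM of triple sample 2. Ddit4 was highest in triple sample 4, at 67.9 CPM. The lactate transporter Slc16a1 was highest in triple sample 3, at 68.6 CPM, and lowest in triple sample 1, at 30.8 CPM. Among the triple samples, Pdk2 and Pdk4 were highest in sample 2 and Pdk3 in sample 5. Ldha and Pkm were highest in triple sample 6, but next highest in triple samples 2 and 4, respectively.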
